A study of Mus musculus with 2 samples.

Results

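A set of 8 genes was followed across the cell classes of dystrophic muscle: the metallothionein genes Mt1, Mt2 and Mt3, and Fkbp5, Tsc22d3, Per1, Zbtb16 and Apod, which glucocorticoid hormones are known to induce. They are 8 of the 24984 gene symbols in the count tables and were chosen on differences already measured between the same 2 libraries. Differences between the libraries in these genes are therefore a description and carry no test. The libraries are droplet single cell RNA-seq of the mdx mouse, a dystrophin-deficient model in which hind limb muscles degenerate and repair repeatedly. The Ctrl mice were Pax7 CreERT2/R26YFP; Yy1+/+; mdx, and the dKO mice were Pax7 CreERT2/R26YFP; Yy1 f/f; mdx, so that Yy1 was deleted by a Cre recombinase expressed from Pax7, that is, in muscle stem cells (MuSCs). Both groups received tamoxifen on 5 consecutive days from the age of 1.5 months, and live mononuclear cells were sorted 1 month later from the pooled muscles of 3 mice per group, after enzymatic digestion and red blood cell lysis. Each group is therefore 1 library, mice cannot be told apart within it, and no p-value could be computed. Every interval given is a 95% interval for counting error only, and it does not cover the differences between mice, digestions or droplet runs.

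Metallothioneins are small cysteine-rich proteins that bind zinc and copper, and Mt1 and Mt2 are induced in most cell types by zinc through the transcription factor Mtf1, by glucocorticoids, and by oxidative and inflammatory stress. Mt3 is mostly known from the nervous system. Fkbp5 encodes a co-chaperone that restrains the glucocorticoid receptor and is itself induced by it, Tsc22d3 encodes GILZ, an anti-inflammatory leucine zipper protein, and Per1 is a clock gene that glucocorticoids switch on directly. Zbtb16 encodes the zinc finger transcription factor PLZF, and Apod encodes apolipoprotein D, a secreted lipocalin.

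The metallothionein genes lie next to each other on chromosome 8 (GRCm38, GENCODE M21), Mt3 at chr8:94152607-94154146, Mt2 at chr8:94172664-94173568 and Mt1 at chr8:94179082-94180327, all on the plus strand. The start of Mt2 is 6418 bases from that of Mt1. The other genes lie apart, Apod at chr16:31296192-31314808 (minus strand), Fkbp5 at chr17:28399094-28517527 (minus), Per1 at chr11:69095217-69109960 (plus), Tsc22d3 at chrX:140539528-140600659 (minus) and Zbtb16 at chr9:48654297-48836222 (minus). The 250 bases before each RefSeq start (GRCm38.p6, plus strand) are shown because Mt1 and Mt2 were detected in all classes while Mt3 had few UMIs or none in most of them, and capitals mark each copy of the metal response element core, TGCACNC or TGCGCNC on either strand, through which Mtf1 acts. The windows are chr8:94178839-94179088 for Mt1, chr8:94172368-94172617 for Mt2 and chr8:94152357-94152606 for Mt3.
Mt1: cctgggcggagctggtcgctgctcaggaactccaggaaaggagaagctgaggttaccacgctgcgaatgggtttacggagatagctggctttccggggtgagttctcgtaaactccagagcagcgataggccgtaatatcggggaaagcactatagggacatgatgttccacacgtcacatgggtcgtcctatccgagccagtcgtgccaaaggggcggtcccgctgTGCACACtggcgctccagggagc
Mt2: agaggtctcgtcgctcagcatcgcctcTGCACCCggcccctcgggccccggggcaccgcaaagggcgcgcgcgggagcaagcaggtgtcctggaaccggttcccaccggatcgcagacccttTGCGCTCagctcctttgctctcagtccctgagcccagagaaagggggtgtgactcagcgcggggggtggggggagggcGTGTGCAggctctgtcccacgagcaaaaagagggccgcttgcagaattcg
Mt3: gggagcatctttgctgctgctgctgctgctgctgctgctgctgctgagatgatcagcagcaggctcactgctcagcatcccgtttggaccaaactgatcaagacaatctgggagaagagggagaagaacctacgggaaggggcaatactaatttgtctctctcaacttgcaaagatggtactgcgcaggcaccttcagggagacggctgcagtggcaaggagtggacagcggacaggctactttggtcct
The Mt2 window held 3 cores, the Mt1 window 1 and the Mt3 window 0. Of 32851 promoter windows of the same length, 21.4% held at least 1 core and 1.26% held at least 3. GENCODE gives these genes 8 transcripts, and the first exon of 1 transcript of each gene held further copies, 4 in Mt1, 3 in Mt2 and 3 in Mt3, while the other 5 first exons held 0. The same 3 exons hold the TATA box letters TATAAA, which therefore lie beyond the end of the windows shown, and the counts of 3, 1 and 0 cover these windows only. Promoter windows were found for 7 of the 8 genes (not Zbtb16), 10 windows in all. The full palindromic glucocorticoid response element matched none of these windows and 0.00913% of all windows, and 1 arm of it, AGAACA on either strand, matched 1 of the 3 Tsc22d3 windows and no other of the 10, against 16.1% of all windows. The E-box CACGTG, bound by the clock factors, matched 1 of the 2 Per1 windows and the Fkbp5 window, against 6.02% of all windows. A match or its absence in so short a window is a description of the sequence only.

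The count tables held 4527 Ctrl and 3483 dKO cells with 45556596 and 33815155 unique molecular identifiers (UMIs, each marking 1 captured mRNA molecule). After filtering, 4010 and 3079 cells were kept, with medians of 7807 and 7852 UMIs per cell, and 7 cell barcodes occurred in both libraries. The cells fell into 15 named classes and 2 unnamed clusters, of which fibro-adipogenic progenitor-like cells (FAP-like, 1081 Ctrl and 1140 dKO cells), monocyte and macrophage-like cells (MO/MP-like, 1315 and 1008) and endothelial-like cells (EC-like, 469 and 181) were the largest. The 8 genes took no part in the clustering. Levels are UMIs of a gene per 1000000 UMIs of a class in a library (CPM). Yy1 itself stood at 162 CPM in the 123 Ctrl MuSC-like cells (402 UMIs) and at 3.91 CPM in the 30 dKO MuSC-like cells (3 UMIs), a dKO to Ctrl ratio of 0.0241 (0.00495 to 0.0709). In the other 12 classes with at least 20 cells in both libraries, the Yy1 ratio ran from 0.683 in T-like cells to 1.28 in dendritic-like cells.

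Mt1 and Mt2 were detected in all 17 classes and clusters, and among the 13 with at least 20 cells in both libraries the summed Mt1 level was highest in connective tissue and mural cells. Mt1 in Ctrl stood at 5002 CPM (4888 to 5119) in tenocyte-like cells, the fibroblasts of tendon, at 2517 CPM (2491 to 2543) in FAP-like cells and at 2020 CPM (1932 to 2110) in smooth muscle/pericyte-like cells, and the intervals of these neighbours did not overlap. In dKO the same 3 classes were at 3970, 3817 and 4028 CPM, and the Poisson interval of each overlapped that of the next. These are summed levels, and the median smooth muscle/pericyte-like cell stood at only 132 CPM in Ctrl and 1222 CPM in dKO. At the other end, Mt1 was at 43.9 CPM in Ctrl and 27.1 CPM in dKO in B-like cells, and at 47.8 and 56.2 CPM in T-like cells. Mt2 was led by 1389 CPM in tenocyte-like, 1146 CPM in FAP-like, 597 CPM in cycling FAP-like and 448 CPM in MuSC-like cells of Ctrl, while smooth muscle/pericyte-like cells stood at 157 CPM. FAP-like cells were 27.0% of the Ctrl cells and held 62.7% of the Mt1 UMIs and 74.6% of the Mt2 UMIs. In dKO they were 37.0% of the cells and held 79.8% and 86.1%.

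**Figure D1:**
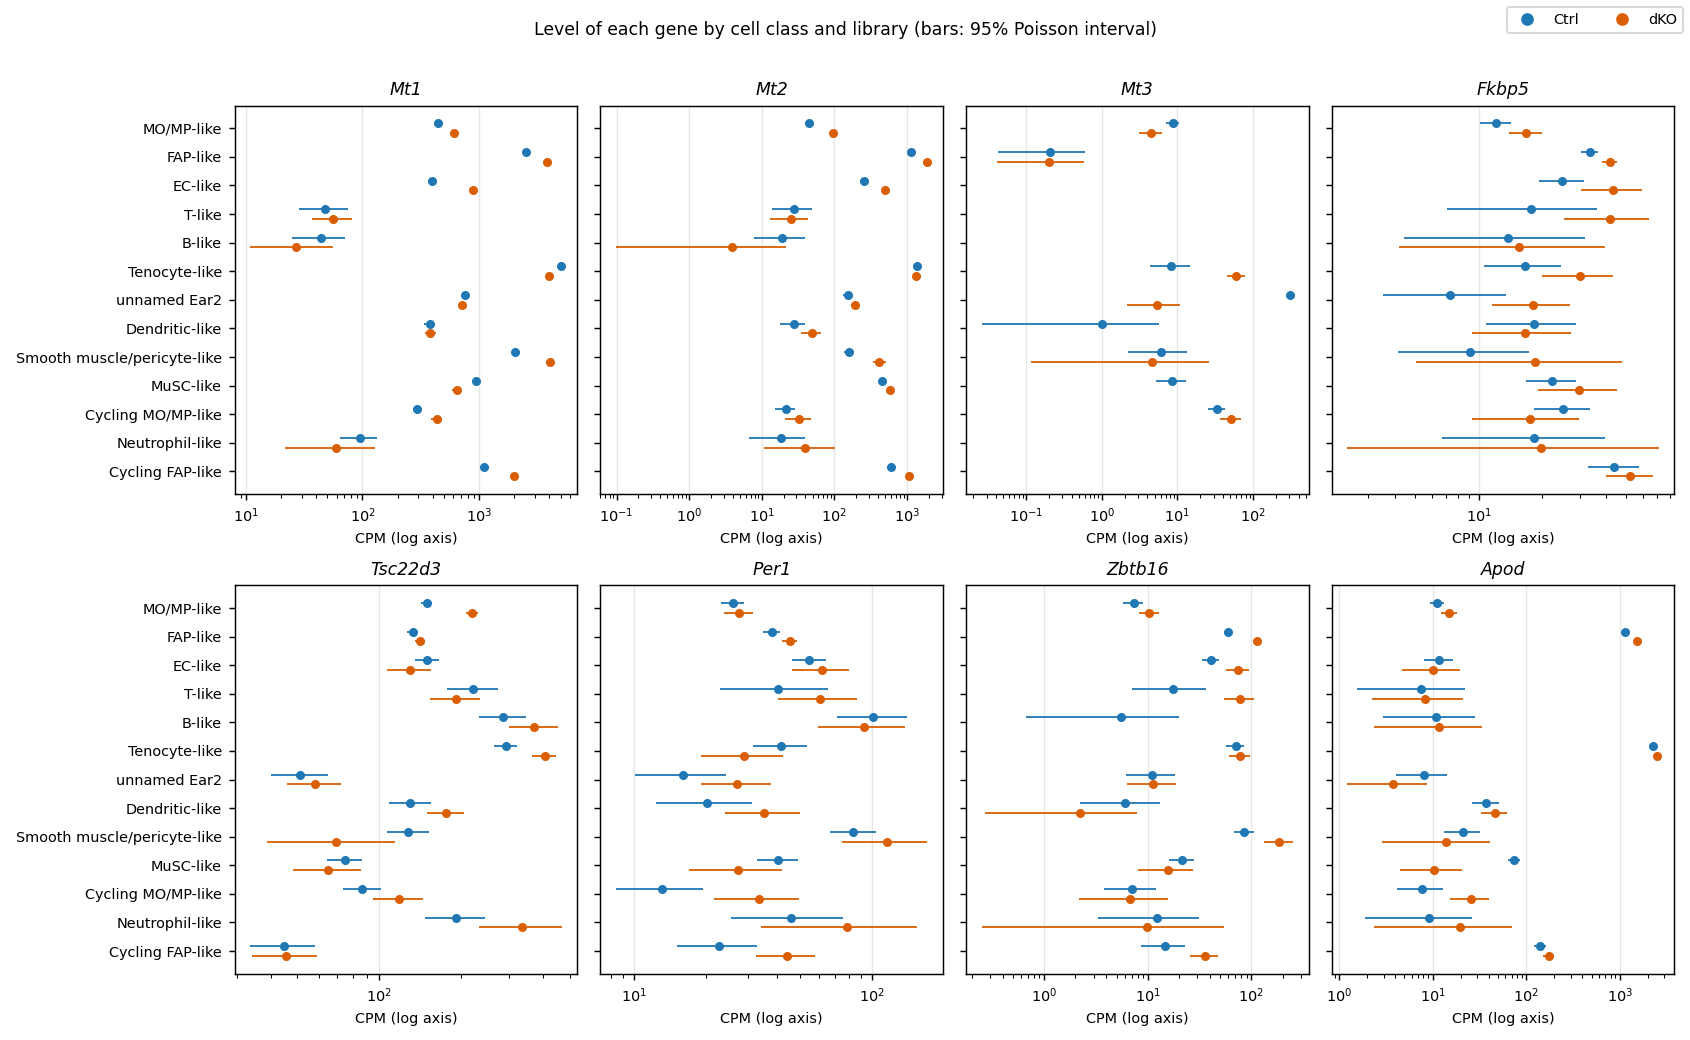
Level of each of the 8 genes in CPM (log axis) in the 13 classes with at least 20 cells in both libraries, for Ctrl (blue) and dKO (orange); bars are 95% Poisson intervals, and a class with 0 UMIs has no point. Mt1, Mt2 and Apod are far higher in tenocyte-like and FAP-like cells than in lymphoid cells, while Tsc22d3 and Per1 are spread over all classes.

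In FAP-like cells, the stromal progenitors that support regeneration and can form fat and scar tissue, both metallothioneins were higher in dKO. Mt1 was at 2517 CPM in Ctrl (36575 UMIs) and 3817 CPM in dKO (57902 UMIs), a ratio of 1.52 (1.5 to 1.54). Mt2 was at 1146 CPM in Ctrl and 1892 CPM in dKO, a ratio of 1.65 (1.62 to 1.68). The difference was present in each of the 3 FAP-like clusters, named by lists of state markers. For Mt1 the ratio was 1.44 in the Inmt/Gdf10 cluster, 1.63 in the Cxcl5 activated cluster and 1.46 in the Pi16/Dpp4 cluster, and for Mt2 it was 1.62, 1.67 and 1.44. The markers of FAPs themselves had a ratio of 1.02 in FAP-like cells, while the 10 endothelial markers summed there had 895 and 254 UMIs, a ratio of 0.272, with 0 of 10 higher and none at 0, and the 6 red blood cell markers had 6 and 44 UMIs, with 3 of the 6 at 0 in each library. The 9 natural killer cell markers had 52 and 11 UMIs, a ratio of 0.203, and the 10 monocyte and macrophage markers 1093 and 871 UMIs, a ratio of 0.763. The 10 MuSC markers went the other way, with 2335 and 2961 UMIs, a ratio of 1.21. The part of RNA from these other cells in the metallothionein values was not tested. The Inmt/Gdf10 cluster held 707 Ctrl and 697 dKO cells, the Cxcl5 activated cluster 241 and 288, and the Pi16/Dpp4 cluster 133 and 155.

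The median FAP-like cell stood at 972 CPM of Mt1 in Ctrl and 2318 CPM in dKO, while the 90th percentile stood at 7533 and 9901 CPM. For Mt2 the medians were 520 and 1287 CPM. The highest 10% of the cells held 45.9% of the Mt1 UMIs in Ctrl and 37.9% in dKO, so the level was more even over the dKO cells. The single cell with most Mt1 held 0.930% and 0.623% of the UMIs. When every cell was thinned to 2000 UMIs, 75.0% (72.2 to 77.6) of 1016 Ctrl and 85.7% (83.5 to 87.8) of 1086 dKO FAP-like cells held an Mt1 UMI, against 92.1% and 95.5% without thinning, and 9.18% and 2.82% of thinned B-like cells did.

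**Figure D2:**
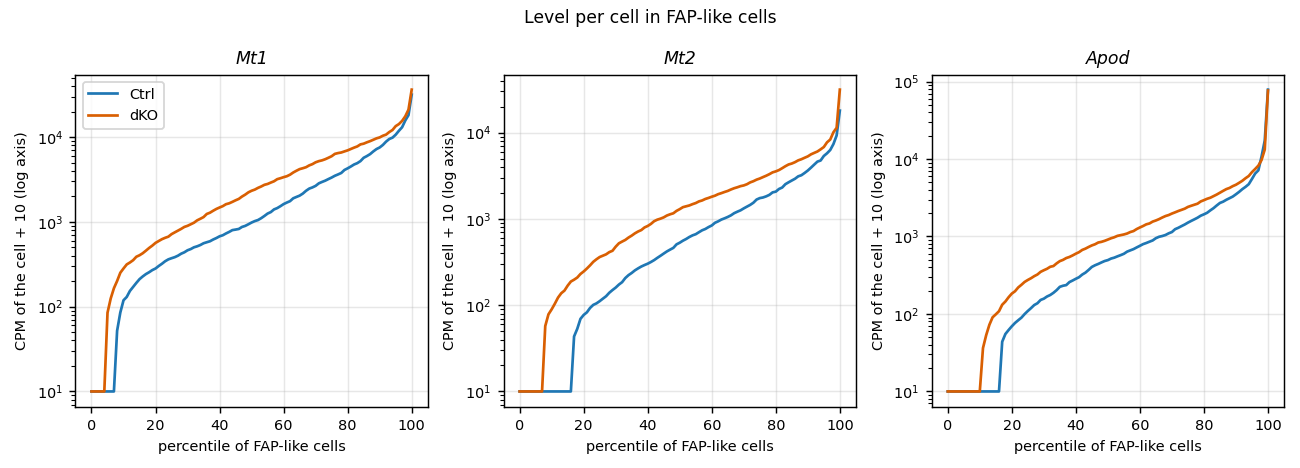
Mt1, Mt2 and Apod level of each FAP-like cell (CPM + 10, log axis) against the percentile of the cell in its library, Ctrl in blue and dKO in orange. The dKO curve lies above the Ctrl curve over most of the range, with medians of 972 and 2318 CPM for Mt1, 520 and 1287 CPM for Mt2, and 485 and 902 CPM for Apod. The Mt1 and Mt2 curves draw closer toward the 99th percentile, at 18130 and 21075 CPM for Mt1 and 9266 and 11373 CPM for Mt2. The Apod curves cross, with 17326 CPM in Ctrl and 13260 CPM in dKO at the 99th percentile.

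In MO/MP-like cells Mt1 was at 444 CPM in Ctrl and 608 CPM in dKO, a ratio of 1.37 (1.32 to 1.43). Mt2 was at 45.0 CPM in Ctrl (524 UMIs) and 96.5 CPM in dKO (708 UMIs), a ratio of 2.15 (1.91 to 2.41). It became 1.30 when no doublets were removed, a setting in which the cells were clustered anew. The class then held 432 and 342 Mt2 UMIs, fewer than with doublets removed, so its cells were not the same. The part of this in the ratio was not tested. The clusters differed in size of effect. In the resident macrophage cluster (leading genes Cd209f, Fcna and Cd163) Mt1 had a ratio of 1.71 (1.55 to 1.89) and Mt2 of 2.85 (2.34 to 3.49), from 190 to 542 CPM, and in the cluster led by Arl5c and Ccrl2 Mt1 had a ratio of 1.41 (1.28 to 1.56) and Mt2 of 3.11 (2.16 to 4.54). The Gpr34/Apoe cluster, with 429 and 288 cells, had ratios of 1.30 (1.19 to 1.42) for Mt1 and 1.37 (1.02 to 1.83) for Mt2, the latter 1.32 (0.956 to 1.81) without the richest cells. The Spp1/Gpnmb cluster had 1.33 (1.22 to 1.45) for Mt1, and its Mt2 interval held 1, at 1.07 (0.791 to 1.42). In the monocyte cluster the intervals held 1 for both genes, at 0.967 (0.883 to 1.06) for Mt1 and 1.22 (0.888 to 1.67) for Mt2, the latter 1.41 (1.01 to 1.98) without the richest cell of each library. The 10 FAP markers, summed inside the MO/MP-like cells, had 5046 UMIs in Ctrl and 5151 in dKO, a ratio of 1.62 (1.56 to 1.69), with 2 of the 10 higher in dKO and none at 0 in either library. The 10 endothelial markers had 13422 and 5031 UMIs in these cells, a ratio of 0.595, with 0 of 10 higher, and the 10 MuSC markers 325 and 363 UMIs, a ratio of 1.77, with 2 of 10 higher. The 10 smooth muscle/pericyte markers had 270 and 73 UMIs, a ratio of 0.429, and the 7 lymphatic endothelial markers 621 and 583 UMIs, a ratio of 1.49. The 6 red blood cell markers had 131 and 394 UMIs, the 10 neutrophil markers had 2630 and 823 UMIs, a ratio of 0.497, and the median cell had 7592 UMIs in Ctrl and 6632.5 in dKO. The part of RNA from other cells in the MO/MP-like values was not tested.

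Endothelial-like cells were uneven in metallothionein level. Mt1 was at 395 CPM in Ctrl and 885 CPM in dKO, a ratio of 2.24 (2.04 to 2.46), and Mt2 at 255 and 501 CPM, a ratio of 1.97 (1.74 to 2.22). The highest 10% of the EC-like cells held 84.7% of the Mt1 UMIs in Ctrl and 79.6% in dKO, and the median cell held none. The 10 MuSC markers summed in these cells had 1085 and 694 UMIs, a ratio of 1.96, with 2 of the 10 higher, 2 at 0 in Ctrl and 6 at 0 in dKO. The 6 red blood cell markers had 269 and 33 UMIs, a ratio of 0.376, the 9 myocyte markers 157 and 12 UMIs, a ratio of 0.234, and the 10 cycling markers 240 and 40 UMIs, a ratio of 0.511. The 9 tenocyte markers had 98 and 51 UMIs, a ratio of 1.60 (1.12 to 2.26), with 6 of the 9 higher. The part of these in the metallothionein values was not tested. The arterial cluster had the largest ratios, 2.46 (2.09 to 2.90) for Mt1 and 4.76 (3.53 to 6.49) for Mt2, which stood at 2.04 and 4.50 without the cell richest in the gene in each library. The venous cluster was at 1.39 and 1.22, and at 1.13 (0.970 to 1.32) and 1.15 (0.972 to 1.36) without those cells. The capillary cluster held 297 of the 469 Ctrl and 99 of the 181 dKO EC-like cells and was the lowest in Mt1, at 155 and 215 CPM. The part of this change in makeup in the ratio of the class was not tested. Its Mt2 ratio of 0.592 (0.352 to 0.948) rested on 1 Ctrl cell that held 66.9% of the 151 UMIs, and was 1.26 (0.644 to 2.32) without the richest cell of each library.

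Smooth muscle/pericyte-like cells, which wrap the vessels, had an Mt1 level of 2020 CPM in Ctrl and 4028 CPM in dKO, a ratio of 1.99 (1.84 to 2.16), over 122 and 35 cells. The median cell was at 132 CPM in Ctrl and 1222 CPM in dKO, and the 90th percentile at 8136 and 10765 CPM. All 10 smooth muscle/pericyte markers were enriched in this cluster, and so were all 10 endothelial markers. Cycling FAP-like cells had a ratio of 1.79 (1.67 to 1.91) and cycling MO/MP-like cells 1.47 (1.28 to 1.69). Mt1 was lower in dKO in tenocyte-like cells, at 0.794 (0.763 to 0.826), while the median cell was at 1577 CPM in Ctrl and 1869 CPM in dKO. The highest 10% of the tenocyte-like cells held 52.9% of the Mt1 UMIs in Ctrl and 41.2% in dKO. It was also lower in MuSC-like cells, whose leading genes, such as Chrna1, Myog, Mymx, Myod1 and Cdh15, include genes of differentiating and fusing myogenic cells, so that the class is not stem cells alone, at 940 and 646 CPM, a ratio of 0.688 (0.623 to 0.758), and at 0.683 without the richest cell of each library. Mt2 went the other way in those MuSC-like cells, from 448 CPM in Ctrl to 584 CPM in dKO, a ratio of 1.30 (1.16 to 1.45). In tenocyte-like cells the Mt2 interval held 1, at 0.955 (0.889 to 1.03). Across the 13 classes with at least 20 cells in both libraries, the Mt1 interval lay above 1 in 6, below 1 in 2 and held 1 in 5, and the Mt2 interval lay above 1 in 8, below 1 in none and held 1 in 5, and of these 8 the dendritic-like interval held 1 without the richest cells. Schwann-like cells, the glia of nerves, were only 10 in Ctrl and 8 in dKO, with 307 and 51 Mt1 UMIs (9892 and 1225 CPM).

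The balance between the paralogs differed by class. Mt2 was 31.3% (30.9 to 31.7) of the Mt1 and Mt2 UMIs in Ctrl FAP-like cells and 33.1% (32.8 to 33.5) in dKO, and in EC-like cells it was 39.2% (37.0 to 41.6) and 36.2% (33.5 to 38.9). In smooth muscle/pericyte-like cells it was 7.23% (6.17 to 8.40) in Ctrl and 9.39% in dKO, although Mt1 itself stood at 2020 CPM there. MO/MP-like cells had 9.20% (8.46 to 9.98) in Ctrl and 13.7% (12.8 to 14.7) in dKO, and MuSC-like cells 32.3% (30.7 to 33.9) and 47.5% (44.2 to 50.7). Within the FAP-like cells the share was 27.1% in the Inmt/Gdf10 cluster, 34.4% in the Cxcl5 activated cluster and 40.6% in the Pi16/Dpp4 cluster of Ctrl, and 29.4%, 34.9% and 40.3% in dKO, so that the clusters kept their order in both libraries. Mt1 and Mt2 are close paralogs, and reads that match both could be lost or divided in counting, which the sum of both genes avoids in part. The sum had a dKO to Ctrl ratio of 1.56 (1.54 to 1.58) in FAP-like, 1.44 (1.39 to 1.5) in MO/MP-like and 2.13 (1.98 to 2.30) in EC-like cells.

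**Figure D3:**
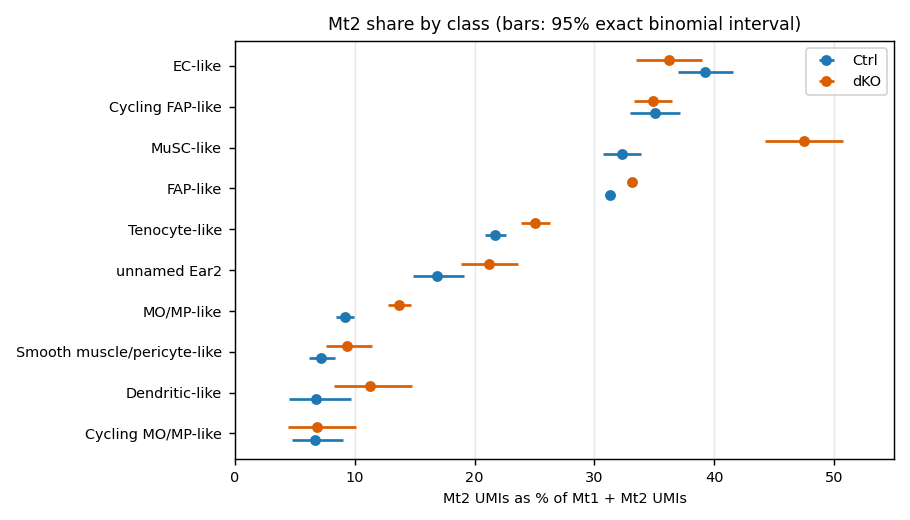
Mt2 UMIs as a percentage of Mt1 and Mt2 UMIs in the classes with at least 20 cells and 100 such UMIs in each library, Ctrl in blue and dKO in orange, with 95% exact binomial intervals. In Ctrl the share is lowest in cycling MO/MP-like, dendritic-like and smooth muscle/pericyte-like cells and reaches 47.5% in dKO MuSC-like cells.

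Mt3 was rare, and single cells held a large part of its UMIs in the myeloid classes. The Ctrl library held 647 Mt3 UMIs and the dKO library 150. The unnamed cluster led by Ear2, a myeloid cluster whose leading genes also include Retnla and Mmp12, had 419 UMIs in Ctrl and 7 in dKO, but 326 of the 419 came from 1 cell and only 13 of 99 Ctrl cells held any. MO/MP-like cells had 101 UMIs in Ctrl and 33 in dKO, 30 of the latter in 1 cell, and 96 and 33 of them lay in the Spp1/Gpnmb cluster. Their ratio of 0.519 (0.339 to 0.775) was 0.078 without the richest cell of each library and 1.56 (0.395 to 6.44) when cells were thinned to 2000 UMIs, from only 5 and 6 UMIs, so that no direction could be read at that depth. Cycling MO/MP-like cells had 61 UMIs in Ctrl, 44 of them in 1 cell, and 38 in dKO, 30 of them in 1 cell, at 33.3 and 51.0 CPM, a ratio of 1.53 (0.995 to 2.34). In tenocyte-like cells Mt3 had 12 UMIs in Ctrl and 56 in dKO, a ratio of 7.27 (3.85 to 14.9), and 28 of the 56 were in 1 cell. MuSC-like cells held 21 UMIs in 12 Ctrl cells (8.48 CPM) and 0 in dKO, which allows up to 3.91 CPM there by the limit of 3 counts. FAP-like cells had 3 UMIs in each library. EC-like cells had 0 UMIs, which allows up to 1.11 CPM in Ctrl and 3.41 CPM in dKO, and T-like, B-like, neutrophil-like and cycling FAP-like cells had none. Schwann-like cells, of the nerve lineage in which Mt3 is best known, had 17 UMIs in 6 of 10 Ctrl cells and 12 UMIs in 4 of 8 dKO cells.

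Fkbp5 was low in every class. In FAP-like cells it was at 33.5 CPM in Ctrl (487 UMIs) and 41.7 CPM in dKO (632 UMIs), a ratio of 1.24 (1.10 to 1.40). The Inmt/Gdf10 cluster had a ratio of 1.49 (1.27 to 1.76), while the Cxcl5 activated cluster was at 0.986 (0.807 to 1.21) and the Pi16/Dpp4 cluster at 1.11 (0.744 to 1.67). MO/MP-like cells were at 12.1 and 16.8 CPM, a ratio of 1.39 (1.08 to 1.78), and EC-like cells at 24.8 and 43.2 CPM, a ratio of 1.74 (1.14 to 2.63). With cells thinned to 2000 UMIs both intervals held 1, at 1.41 (0.857 to 2.34) and 1.53 (0.661 to 3.34). The unnamed Ear2 cluster had 10 and 24 UMIs, and tenocyte-like cells 24 and 28 UMIs with a ratio of 1.82 (1.02 to 3.28), whose interval held 1 without the richest cell of each library. In the other 8 of the 13 classes the interval held 1. The Poisson intervals of all neighbours in the order of classes overlapped in both libraries, from 43.9 CPM in cycling FAP-like cells to 7.33 CPM in the unnamed Ear2 cluster of Ctrl.

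Tsc22d3 was highest in tenocyte-like cells (292 CPM in Ctrl and 405 CPM in dKO) and B-like cells (285 and 371 CPM), whose intervals overlapped in both libraries. In FAP-like cells it was at 133 CPM in Ctrl and 142 CPM in dKO, a ratio of 1.07 (1.00 to 1.13). It was 0.964 (0.832 to 1.12) when cells were thinned to 2000 UMIs, an interval that held 1, so that no direction could be read at that depth. The FAP-like clusters went in opposite directions. The ratio was 1.14 (1.06 to 1.22) in the Inmt/Gdf10 cluster and 1.19 (1.01 to 1.40) in the Cxcl5 activated cluster (1.15, 0.969 to 1.36, without the richest cells), but 0.727 (0.579 to 0.913) in the Pi16/Dpp4 cluster, from 128 to 92.9 CPM. MO/MP-like cells were at 150 CPM in Ctrl and 219 CPM in dKO, a ratio of 1.46 (1.36 to 1.56). Among their clusters it was largest in the Spp1/Gpnmb cluster, at 1.94 (1.62 to 2.32), and lay between 1.34 and 1.39 in the Gpr34/Apoe, resident and monocyte clusters. EC-like cells gave 0.863 (0.695 to 1.07), or 0.8005 (0.667 to 0.956) with no doublets removed, with the venous cluster at 0.565 (0.333 to 0.920). Smooth muscle/pericyte-like cells had 127 UMIs in Ctrl and 15 in dKO, a ratio of 0.544 (0.296 to 0.931).

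Per1 was highest in B-like cells (101 CPM in Ctrl and 92.8 CPM in dKO) and smooth muscle/pericyte-like cells (83.7 and 116 CPM). In FAP-like cells it was at 37.9 CPM in Ctrl and 45.2 CPM in dKO, a ratio of 1.19 (1.06 to 1.33), with 1.19, 1.14 and 1.32 in the Inmt/Gdf10, Cxcl5 activated and Pi16/Dpp4 clusters. The intervals held 1 in MO/MP-like cells, at 1.06 (0.886 to 1.28), and in EC-like cells, at 1.13 (0.809 to 1.55). With cells thinned to 2000 UMIs the MO/MP-like ratio was 1.53 (1.07 to 2.20), which no longer held 1, and the FAP-like ratio was 1.13 (0.826 to 1.54), which did. The ratio was 2.56 (1.40 to 4.69) in cycling MO/MP-like cells, from 24 UMIs in Ctrl and 25 in dKO, and 1.92 (1.19 to 3.16) in cycling FAP-like cells, from 28 and 52 UMIs.

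Zbtb16 in FAP-like cells was at 60.1 CPM in Ctrl (874 UMIs) and 114 CPM in dKO (1732 UMIs), a ratio of 1.90 (1.75 to 2.06), which was 1.57 when cells were thinned to 2000 UMIs. The Inmt/Gdf10 cluster had a ratio of 2.30 (2.06 to 2.57), from 58.3 to 134 CPM, and the Cxcl5 activated cluster 2.07 (1.70 to 2.52). The Pi16/Dpp4 cluster, which had the highest level in both libraries at 217 and 228 CPM, had a ratio of 1.05 (0.896 to 1.23). Smooth muscle/pericyte-like cells were at 84.7 and 186 CPM, a ratio of 2.19 (1.47 to 3.23), and EC-like cells at 40.4 and 73.9 CPM, a ratio of 1.83 (1.32 to 2.51). T-like cells, where PLZF marks innate-like subsets, had 7 UMIs in Ctrl and 37 in dKO, a ratio of 4.37 (1.92 to 11.6), in 4.35% and 13.2% of the cells. Zbtb16 was low in MO/MP-like cells, at 7.30 and 10.4 CPM, with a ratio of 1.42 (1.03 to 1.96) that turned to 0.884 as a mean over cells.

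Among the 13 classes with at least 20 cells in both libraries, Apod was highest in tenocyte-like and FAP-like cells. It stood at 2274 CPM in Ctrl and 2513 CPM in dKO in tenocyte-like cells, a ratio of 1.11 (1.05 to 1.17), and at 1141 and 1544 CPM in FAP-like cells, a ratio of 1.35 (1.33 to 1.38). In B-like and T-like cells it was between 7.55 and 11.6 CPM. Among the FAP-like clusters, the Inmt/Gdf10 cluster was at 1894 and 2565 CPM, a ratio of 1.35 (1.33 to 1.38), the Cxcl5 activated cluster at 216 and 561 CPM, a ratio of 2.59 (2.43 to 2.77), and the Pi16/Dpp4 cluster at 462 and 496 CPM, a ratio of 1.07 (0.963 to 1.19), or 1.16 (1.03 to 1.29) without the richest cells. The share of thinned FAP-like cells with an Apod UMI was 56.4% (53.3 to 59.5) in Ctrl and 69.6% (66.8 to 72.3) in dKO, against 2.04% and 2.82% of B-like cells. Apod in MO/MP-like cells was at 11.2 CPM in Ctrl and near the lymphoid level in both libraries, and its ratio of 1.34 went to 1.03 without the richest cell of each library and to 2.95 when no doublets were removed. In MuSC-like cells it had 186 UMIs in Ctrl and 8 in dKO, but 163 of the 186 were in 1 cell, and without the richest cells the ratio of 0.139 became 0.909 (0.303 to 2.30).

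**Figure D4:**
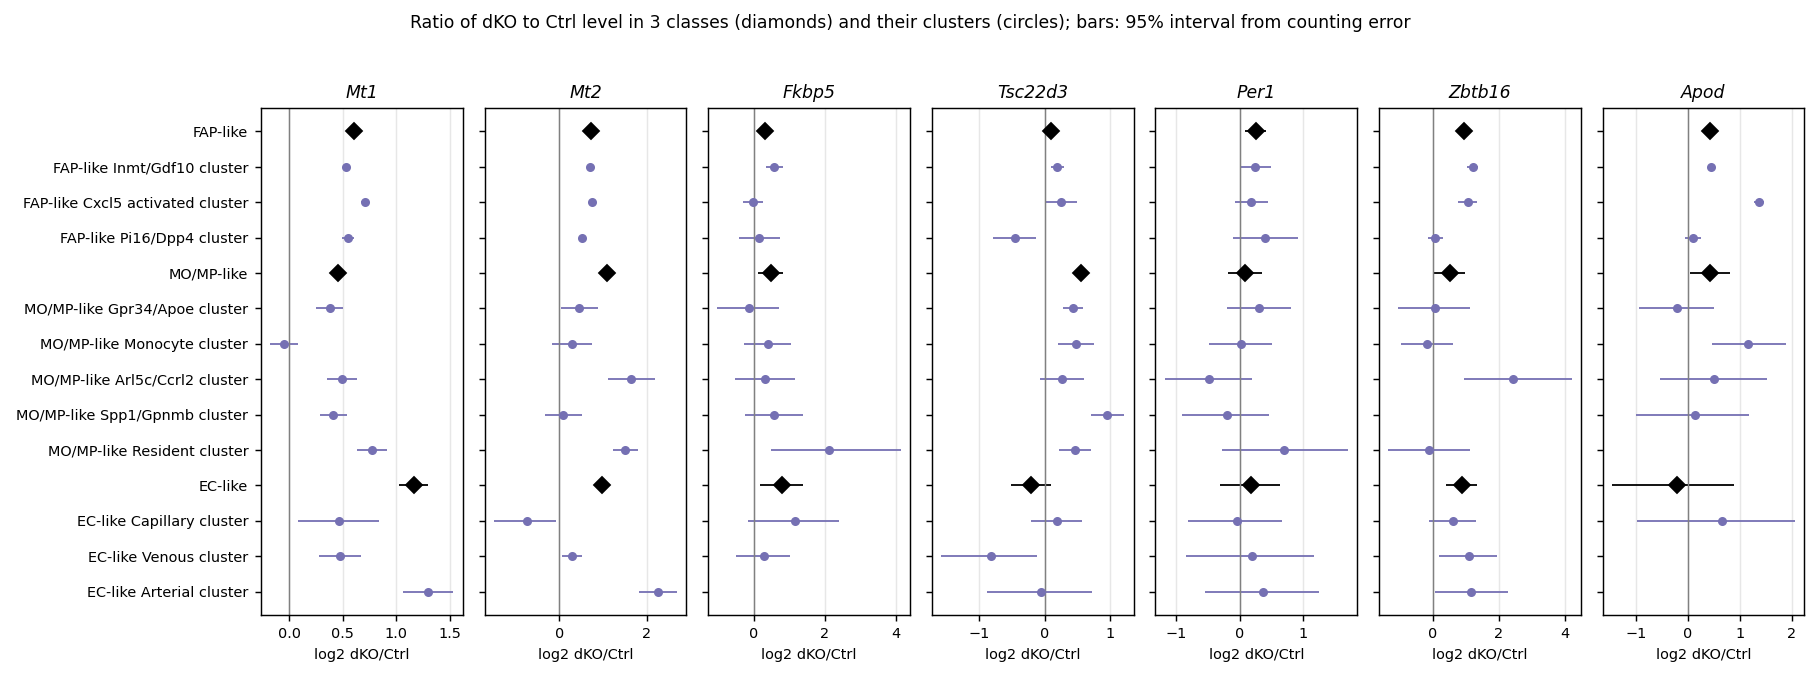
Ratio of dKO to Ctrl level (log2) of 7 of the genes in FAP-like, MO/MP-like and EC-like cells (black diamonds) and in their clusters (circles), with 95% intervals from counting error; units with under 20 UMIs of a gene in both libraries together are left out. Mt1 and Mt2 lie to the right of 0 in all FAP-like clusters, whereas Tsc22d3 in the Pi16/Dpp4 cluster and Mt2 in the capillary cluster lie to the left.

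Set against all genes with at least 100 UMIs in a class, 266 of 10223 genes (2.60%) were at least 1.5-fold higher in dKO in FAP-like cells and 584 (5.71%) were at least 1.5-fold higher or lower, and 3 of the 8 chosen genes, Mt1, Mt2 and Zbtb16, were higher and none lower. The Mt1 interval there held 1.5, and as a mean over cells its ratio was 1.495, which leaves 2 genes past 1.5-fold. Among 8455 genes in MO/MP-like cells, 405 (4.79%) were higher and 659 (7.79%) higher or lower, and the chosen genes gave 1 higher, Mt2, and 1 lower, Mt3. Among 4770 genes in EC-like cells, 217 (4.55%) were higher and 558 (11.7%) higher or lower, and the chosen genes gave 4 higher, Mt1, Mt2, Fkbp5 and Zbtb16, and none lower. Since these genes were chosen on such differences, the counts describe the choice. Mt3 in FAP-like cells and Mt3 and Apod in EC-like cells did not reach 100 UMIs.

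Other genes of the same biology were taken from fixed lists, given as log2 ratios of dKO to Ctrl, and their counts past 1.5-fold stand against the shares of all genes given above. In FAP-like cells those were 2.60% higher and 5.71% in either direction. Of the glucocorticoid receptor and the proteins that handle it and its ligand, 11 of 12 were measured in FAP-like cells and none passed 1.5-fold, with a median of -0.08 against -0.06 for all genes. Nr3c1, the receptor, was at -0.25 (-0.34 to -0.16) in FAP-like and 0.25 (0.11 to 0.39) in MO/MP-like cells. Hsd11b1, which regenerates active glucocorticoid, was at -0.28 (-0.44 to -0.12) in FAP-like cells, and Ptges3, a co-chaperone of the receptor, at 0.27 (0.20 to 0.35). The chaperone gene Hsp90aa1 was at 0.60 (0.57 to 0.63) in MO/MP-like cells, the only 1 of 9 measured there past 1.5-fold. Of 29 other glucocorticoid-induced genes, 24 were measured in FAP-like cells, 2 passed 1.5-fold higher and 1 lower, and the median was 0.22 against -0.06 for all genes. Of these 24, 14 had an interval above a ratio of 1 and 6 below it, against 14.3% and 23.5% of all genes. Those with the largest ratios went in both directions: the thrombomodulin gene Thbd was at 0.73, Lcn2, a lipocalin, at 0.63 and Errfi1 at 0.46, while Cdkn1c, a cell cycle inhibitor, was at -0.85. Of 24 measured in MO/MP-like cells 2 passed higher and 3 lower, where 7.79% of all genes passed in either direction, with Cdkn1a at 0.75, Anxa1, which encodes annexin A1, at -0.81 and Angptl4 at -0.87, and a median of 0.08. There 8 had an interval above a ratio of 1 and 8 below it, against 19.7% and 17.8% of all genes.

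Of 14 inflammatory genes that glucocorticoids repress, 8 were measured in FAP-like cells with a median of 0.41, 2 of them 1.5-fold higher and 1 lower, among them Cxcl2, a neutrophil chemokine, at 0.77, Ptgs2, the inducible cyclooxygenase, at 0.64, Cxcl10 at 0.49 and Ccl5 at -0.88. Of these 8, 7 had an interval above a ratio of 1 and 1 below it, against 14.3% and 23.5% of all genes. Of the 10 measured in MO/MP-like cells, 4 were 1.5-fold higher, against 4.79% of all genes, and none lower, with a median of 0.47 against 0.00 for all genes. The interval lay above a ratio of 1 for 9 of them and below it for none, against 19.7% and 17.8% of all genes. Ccl5 was at 1.81, Cxcl10 at 1.04, Tnf at 0.92 and Il1b at 0.80. Of 25 genes of zinc and copper handling, 22 were measured in FAP-like cells and none passed 1.5-fold, with a median of -0.12. Of these 22, 1 had an interval above a ratio of 1 and 7 an interval below it, against 14.3% and 23.5% of all genes. The zinc transporter genes Slc39a13 and Slc30a7 were at -0.48 (-0.63 to -0.34) and -0.44 (-0.63 to -0.26), and Cox17, a copper chaperone gene, at -0.35, while Slc39a14, a zinc importer induced by inflammation, was at 0.48 (0.37 to 0.58). Of 20 measured in MO/MP-like cells, 1 was 1.5-fold higher and 1 lower, 3 had an interval above a ratio of 1 and 7 below it, against 19.7% and 17.8% of all genes, and the median was -0.08. Slc39a14 was at 0.91 (0.64 to 1.18) and Mtf1 at 0.49 (0.13 to 0.84) there, while the zinc transporter genes Slc39a11 and Slc39a10 were at -0.89 and -0.50.

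Oxidative stress genes had a median of 0.29 in FAP-like cells over the 11 measured of 12, with 2 past 1.5-fold, Srxn1 at 0.78 and Txnrd1 at 0.66, and Gclc at 0.58 and Hmox1, the inducible heme oxygenase, at 0.49. Of these 11, 6 had an interval above a ratio of 1 and 1 below it, against 14.3% and 23.5% of all genes. In EC-like cells 3 of 8 measured were 1.5-fold higher, against 4.55% of all genes, with a median of 0.57, and in MO/MP-like cells none of 11, with a median of -0.08, Txnrd1 at 0.30, Srxn1 at 0.27, Slc7a11 at -0.25 and Gclc at -0.24. Among 16 clock genes, 14 were measured in FAP-like cells with a median of -0.29, and 2 were 1.5-fold lower, Dbp at -0.89 and Bhlhe41 at -0.65. Per2 was at -0.55 and Tef at -0.49 there, while Per1, described above, was at 0.25. Only 9 clock genes were measured in MO/MP-like cells, none passed 1.5-fold and the median was -0.06. In EC-like cells 5 were measured, with a median of 0.29, and 1, Nr1d2, was 1.5-fold higher at 0.75.

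The 20 genes that respond to tissue dissociation and to early stress were measured too, since the cells were released by digestion. Their summed level was 34962 CPM in Ctrl and 34015 CPM in dKO in FAP-like cells, 13478 and 17110 CPM in MO/MP-like cells, and 40781 and 38004 CPM in EC-like cells. In FAP-like cells their median was 0.05 and none passed 1.5-fold, with Nr4a1 at 0.29, Ier3 at 0.27, Jun at -0.26 and Hspa1a at -0.20. In MO/MP-like cells all 20 had intervals above a ratio of 1, against 19.7% of all genes, and 5 were 1.5-fold higher, against 4.79%, led by Socs3 at 1.15, Egr1 at 0.73, Fosb at 0.68 and Dnajb1 at 0.62. The part of this response in the MO/MP-like values of Mt1, Mt2 and Tsc22d3 was not tested.

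Of 12 other FKBP genes in FAP-like cells none passed 1.5-fold and the median was 0.02, with Fkbp10, a collagen chaperone, at -0.48, Fkbp14 at -0.41, Fkbp7 at -0.27 and Fkbp4 at 0.20. Tsc22d2 was at 0.33, Tsc22d4 at -0.19 and Tsc22d1 at -0.12. Of 6 other lipocalin genes, 2 were measured in FAP-like cells, Rbp4, the retinol carrier, at 0.97 and Lcn2 at 0.63. In MO/MP-like cells the FKBP median was -0.10 over 7 genes, with Fkbp1a at -0.24, the TSC22 median was 0.17 over 3 genes, and Lcn2 was at -1.05. The study picked Apod, Ptx3, Myoc and Mt1 as markers of a Transitional FAP subset that it named in the Ctrl library, which is 1 of the 2 libraries compared here, so their direction is no independent evidence. All 4 were higher in dKO FAP-like cells, with Ptx3, a pentraxin of innate immunity, at 1.16 and Myoc at 0.47, 2 of them past 1.5-fold.

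The pattern over classes was compared gene by gene, as Pearson correlation of log2(CPM + 10) over 26 points (13 classes in 2 libraries) among 7245 genes, which share depth and libraries and are not independent. The 5 genes most like the sum of Mt1 and Mt2 were Nenf (0.97), Phldb1 (0.96), Fgfr1 (0.95), Itpripl2 (0.94) and Spred1 (0.92). For Apod they were Mfap4, Igfbp6, Mfap2, Fbln7 and Mmp2, at 0.95 to 0.96, and for Fkbp5 Bcat1, Cyp1b1, Cx3cl1, Fkbp11 and Enc1, at 0.68 to 0.74. For Tsc22d3 they were Ankrd12, Kmt2e, Elmo1, Fbxo11 and Skil, at 0.72 to 0.80. Among the chosen genes, the metallothionein sum had a correlation of 0.67 with Apod, 0.66 with Zbtb16, 0.30 with Fkbp5, 0.19 with Mt3, -0.19 with Per1 and -0.40 with Tsc22d3. Apod had 0.72 with Mt2 and 0.66 with Mt1, while Fkbp5 and Tsc22d3 had -0.22. Over single FAP-like cells thinned to 2000 UMIs, Mt1 and Mt2 had a correlation of 0.69 over 1016 Ctrl cells and 0.71 over 1086 dKO cells, and every other pair of the 7 detected genes lay between -0.16 and 0.22.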

How the data were processed

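Single cells of hind limb muscle were measured in 1 Ctrl and 1 dKO library (10x Chromium, Illumina sequencing). The authors deposited raw UMI counts per gene and cell on mm10. The submitters' processing notes name Cell Ranger 7.0.0, Seurat 4.3.0 and Cufflinks, while the matrix headers name Cell Ranger 3.0.2. The gene tables held 0 mitochondrial genes, so no filter on them was possible. Cells needed 500 genes, which left 4335 Ctrl and 3329 dKO cells, and the 7.5% with the highest Scrublet scores (325 and 250) were removed, as Scrublet's own threshold called 7 and 14. The study reports the same counts, 4335 and 3329, as left after its own filtering and doublet removal. Whether the removal here came on top of an earlier one is not known. The libraries were integrated with Seurat 5.3.0 in R 4.3.3 (2000 variable genes without the 8 genes, 40 dimensions, resolution 0.8).

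Clusters were named from 18 marker lists with 160 genes, 3 of them absent from the tables, where at least 3 markers were detected and enriched, no other list led among the top 10 genes, and the share of enriched markers was not below another list's. That last condition was set after seeing the clusters, and it left the Ear2 cluster unnamed. FAP-like, MO/MP-like and EC-like clusters took a state name where at least 3 markers of a further list were enriched. Otherwise they took the names of leading genes. UMIs were summed per class and library and given as CPM with exact Poisson 95% intervals, ratios with exact conditional binomial intervals and shares with exact binomial intervals. These intervals cover counting error only, cells are not replicates, and no p-value was computed. A count of 0 was given a limit of 3 counts. Library totals of 45556596 and 33815155 UMIs set the precision. For shares of cells, each cell was thinned to 2000 UMIs, and shallower cells (65 FAP-like in Ctrl, 54 in dKO) were dropped. The computation was tested on simulated data.

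All 8 genes are named, and from each gene list up to 4 with the largest absolute log2 ratio in FAP-like or in MO/MP-like cells, given 100 UMIs there. Likeness used log2(CPM + 10) over sums of at least 20 cells, among genes reaching 50 CPM. Members and lists were chosen with earlier results of these data known. Promoter windows come from RefSeq (GRCm38.p6) and gene positions from GENCODE M21. Alternatives were no doublet removal, a filter of 200 genes and 1000 UMIs, no integration, clustering with the 8 genes or at resolution 0.4, a mean over cells, median-ratio scaling, thinning, and leaving out the richest cell. Doublets of 2 like cells cannot be seen by such scores.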

Additional observations from a re-analysis of the deposited data

Results flagged for a closer look

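Each value here is a ratio of dKO to Ctrl whose counting interval lay below 1 while intervals of the same gene in other classes or clusters lay above 1, and no difference between classes was tested, since each group is 1 library. Mt1 was at 0.794 in tenocyte-like and 0.688 in MuSC-like cells, against ratios above 1 in 6 other classes, and the MuSC-like value rests on 30 dKO cells. Tsc22d3 was at 0.544 in smooth muscle/pericyte-like cells, where only 35 dKO cells with 15 UMIs stood behind it, and at 0.727 in the Pi16/Dpp4 cluster, against 1.14 and 1.19 in the other FAP-like clusters. Mt3 was at 0.519 in MO/MP-like cells and 0.0172 in the unnamed Ear2 cluster, against 7.27 in tenocyte-like cells and 1.53 (0.995 to 2.34) in cycling MO/MP-like cells, and in the first 3 single cells held 40 of 101, 326 of 419 and 28 of 56 UMIs in the library with more of them. Apod was at 0.139 in MuSC-like cells, where 1 Ctrl cell held 87.6% of the UMIs. Mt2 was at 0.592 in the capillary cluster, where 1 Ctrl cell held 66.9% of the UMIs.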

How the results depend on the processing

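No paired analysis was possible because each group is 1 library. Over 9 alternatives, 46 of 63 values of the sum of Mt1 and Mt2 in the 3 large classes, of Apod and Fkbp5 in FAP-like cells and of Tsc22d3 in FAP-like and MO/MP-like cells stayed within the counting interval of the reported ratio, 16 moved outside it and 1 turned direction, and for the other gene and class pairs 139 stayed, 21 moved and 2 turned, where a turn was counted only for a ratio whose interval did not hold 1. With no doublets removed the Mt1 and Mt2 sum in MO/MP-like cells was 1.22, from 5162 and 3818 UMIs. The main clustering had 5696 and 5167, so the class did not hold the same cells. With no integration the sum was 1.69 in FAP-like and 2.33 in EC-like cells and Apod in FAP-like cells 1.42. Clustering with the 8 genes gave 1.64 for the sum and 1.39 for Apod in FAP-like cells, and resolution 0.4 gave 1.64 and 1.39. Thinning gave 1.52 and 1.92 for the sum in MO/MP-like and EC-like cells, and 1.68, 1.32 and 0.964 for Fkbp5, Apod and Tsc22d3 in FAP-like cells, and 1.56 for Mt3 in MO/MP-like cells, from 5 and 6 UMIs with an interval of 0.395 to 6.44. Thinned intervals held 1 for Fkbp5 in MO/MP-like (1.41) and EC-like cells (1.53) and for Per1 (1.13) and Tsc22d3 (0.964) in FAP-like cells, which they had not before. The same was true for Mt3 (1.56), Zbtb16 (1.37) and Apod (1.47) in MO/MP-like cells. The thinned interval no longer held 1 for Per1 in MO/MP-like cells (1.53). With no doublets removed the interval of Tsc22d3 in EC-like cells (0.8005) no longer held 1. The mean over cells gave 1.31 for Apod in FAP-like and 1.84 for the sum in EC-like cells, and turned Zbtb16 in MO/MP-like cells to 0.884. Median-ratio scaling gave 1.41 for Apod and 1.63 for the sum in FAP-like cells. The cause of these moves was not tested. Mt3 in FAP-like and EC-like cells gave no ratio. Low UMI counts limit Mt3, Fkbp5 and Per1 outside the large classes.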

Other observations

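Several small groups outside the 13 larger classes held the chosen genes at high levels. Schwann-like cells had 21 Apod UMIs in Ctrl and 140 in dKO, 677 and 3362 CPM, and 95 of the 140 came from 1 cell. The unnamed cluster led by Lgals7 and Lypd2, of 17 Ctrl and 11 dKO cells, had Apod at 1761 CPM in Ctrl and 1146 CPM in dKO, a ratio of 0.651. In lymphatic EC-like cells 95.2% of the 42 Ctrl Mt1 UMIs came from 1 of 18 cells. Fkbp5 in the resident macrophage cluster had 4 UMIs in Ctrl and 16 in dKO, a ratio of 4.31 (1.39 to 17.7), and Zbtb16 in the Arl5c/Ccrl2 cluster 5 and 19 UMIs, a ratio of 5.36 (1.93 to 18.4). The Mt2 share of Mt1 and Mt2 UMIs was 17.5% in Ctrl and 26.1% in dKO in the resident macrophage cluster, 19.3% and 31.6% in the arterial cluster and 5.13% and 10.7% in the Arl5c/Ccrl2 cluster. It was lower in dKO in the capillary cluster, at 37.8% (33.0 to 42.7) in Ctrl and 20.6% (13.07 to 30.03) in dKO, where 1 Ctrl cell held 66.9% of the Mt2 UMIs. The intervals of both libraries overlapped in the Spp1/Gpnmb cluster, at 9.40% and 7.67%, and in the venous, monocyte and Gpr34/Apoe clusters.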
